A study of Mus musculus with 34 samples.

Results

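The circadian clock genes analysed here were Per1, Per2, Cry1, Cry2, Arntl, Clock, Npas2, Nr1d1, Nr1d2 and Dbp, taken by their symbols from a table of read counts with 25965 entries. All 10 were found, each as a single entry, and their read counts were followed through 34 RNA-seq libraries of mouse cumulus cells (CCs), the somatic cells that surround the oocyte, collected from superovulated C57BL/6J females. Mice were 8 weeks old when a treatment began, and all were kept under a cycle of 12 h light and 12 h dark. In the leptin experiment, 16 L mice (n = 5 libraries) received 100 µg leptin per day by intraperitoneal injection at 9 h and 21 h for 16 days, and 16 C mice (n = 3) received saline on the same schedule. In the diet experiment, chow (CD, 11% of energy from fat) or a high fat diet (HFD, 58%) was given for 4 weeks (4-week CD and 4-week HFD, n = 5 each) or 16 weeks (n = 6 for 16-week CD, n = 7 for 16-week HFD), and low weight gainers (n = 3) were mice whose weight rose little during 16 weeks of HFD. Mice on the diets were therefore about 12 or 24 weeks old at collection, and no group was free of superovulation. Each library held approximately 50 cells, the labels do not give the hour of collection, and, in these bulk samples, fewer cells of a type and less RNA per cell cannot be told apart.

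The mammalian clock is a feedback loop of transcription. CLOCK or NPAS2 pairs with BMAL1, the product of Arntl, and switches on the Per and Cry genes through E-box sequences, and the PER and CRY proteins then block their own activators. The nuclear receptors REV-ERBα (Nr1d1) and REV-ERBβ (Nr1d2) repress Arntl through ROR elements, and DBP activates genes that carry D-boxes. In most rhythmic tissues Arntl therefore peaks opposite to Nr1d1 and Dbp, and the ovary, including granulosa cells, has a clock that responds to gonadotropins.

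The promoter of 9 of the 10 members was found among the RefSeq windows of 250 bases before to 50 bases after a start site (build GRCm38.p6, 13 windows for these 9 members). On both strands the search covered the E-box CACGTG, the D-box written as TTATGTAA or TTATGCAA, and the ROR element written as TAGGTCA or TGGGTCA. An E-box was held by 7.15% of all 32851 windows, a D-box by 1.66% and a ROR element by 6.45%. Among the members, 2 held an E-box, 1 a D-box and 1 a ROR element in these windows. The matches are shown because they are the elements of the loop described above, with the element in capitals and each sequence on the strand of its gene.
Per1 E-box, chr11:69098771-69098800, plus strand: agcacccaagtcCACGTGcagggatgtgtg
Per1 D-box, chr11:69098914-69098943, plus strand: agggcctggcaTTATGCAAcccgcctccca
Cry1 E-box, chr10:85185097-85185126, minus strand: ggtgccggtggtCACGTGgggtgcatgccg
Arntl ROR element, chr7:113207530-113207559, plus strand: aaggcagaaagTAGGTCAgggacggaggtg
In Per1 both elements lay upstream of the start site, with the E-box starting at position -166 and the D-box at position -24. The Cry1 E-box started at position -60, and the Arntl element began at position 31, counted from the second of the start sites that RefSeq gives for this gene, with no ROR element in the window of the other. A match of letters describes the window and is not a measured binding site.

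All 10 members were detected, at low to moderate levels. Per length of exon (RPKM, averaged over the 7 group means), Nr1d2 was the highest at 11.7, followed by Arntl at 5.17, Cry2 at 5.03, Nr1d1 at 3.87, Clock at 3.75, Per1 at 2.23, Cry1 at 2.15, Dbp at 1.33, Npas2 at 0.819 and Per2 at 0.203. Cry2, Arntl, Clock, Nr1d1 and Nr1d2 had reads in all 34 libraries, while Per2 had reads in 25 and only 241 reads in all. The library preparation does not mark the strand, so reads in the 263 exonic bases that Nr1d1 shares with Thra (8.55% of its exons) and in the 539 that Dbp shares with Sphk2 (18.01%) cannot be assigned to one gene. Levels from here on are normalised CPM, that is, CPM computed on the library size multiplied by its TMM factor.

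Library depth ranged from 1104611 to 13207018 counts, and 3 libraries stood apart from their groups. The library 16 L replicate 18 held 1.94 RPM (CPM computed on total counts, with no TMM factor) of the cumulus expansion markers Has2, Ptx3, Tnfaip6 and Ptgs2, against at least 263 RPM in each of the other 33 libraries, and 29690 RPM of the oviduct list Ovgp1, Epcam, Pax8 and Foxj1. The top-50 share is the percentage of a library's counts in 1 common set, the 50 genes with the highest RPM summed over all 34 libraries. In 16-week CD, it was 12.8% and 13.8% in replicates 1 and 2, against 22.6% to 28.3% in the other 4 libraries of that group. This top-50 share also separated whole groups: it was 28.4% to 29.6% in 16 C, 8.69% to 14.6% in 16 L, 10.7% to 14.9% in 4-week CD, 16.97% to 18.01% in 4-week HFD, 24.006% to 29.4% in 16-week HFD and 22.01% to 25.6% in the low weight gainers. Member calls whose fit held any of these 3 libraries are given with and without them. One 4-week HFD library, replicate 5, held 269 RPM of oocyte markers, and no other library exceeded 10.1 RPM.

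Most clock transcripts differed among the 7 groups, as did most genes. Across all 34 libraries, the quasi-likelihood F-test of edgeR, adjusted by the Benjamini-Hochberg method as in all fits below, called 8 of 10 members (all but Per2 and Npas2), in a comparison in which 67.8% of all genes tested were called. Without the 3 libraries that stood apart, 7 were called and Dbp was not (74.3% of all genes). Nr1d1 (adjusted p = 6.30e-06) ran from a mean of 1.02 ± 0.447 normalised CPM in 16 C (SD, n = 3) to 33.7 ± 20.6 in 4-week HFD (n = 5). Cry2, a repressor of CLOCK and BMAL1 (adjusted p = 1.18e-05), was lowest in 16-week HFD at 10.6 ± 4.72 (n = 7) and highest in 4-week CD at 67.3 ± 13.4 (n = 5). In 16 C its mean was 10.8 ± 2.33 (n = 3), which did not differ from that of 16-week HFD beyond their spread. The light-responsive repressor Per1 (adjusted p = 3.44e-05) ran from 1.74 ± 1.84 in 16 C to 24.7 ± 10.5 in 4-week HFD. In the order of group means of Per1, the 4-week HFD and 4-week CD groups (24.7 and 23.8) did not differ beyond their spread, nor did 16 L and 16-week CD (13.9 ± 6.46 and 12.0 ± 10.0).

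**Figure D1:**
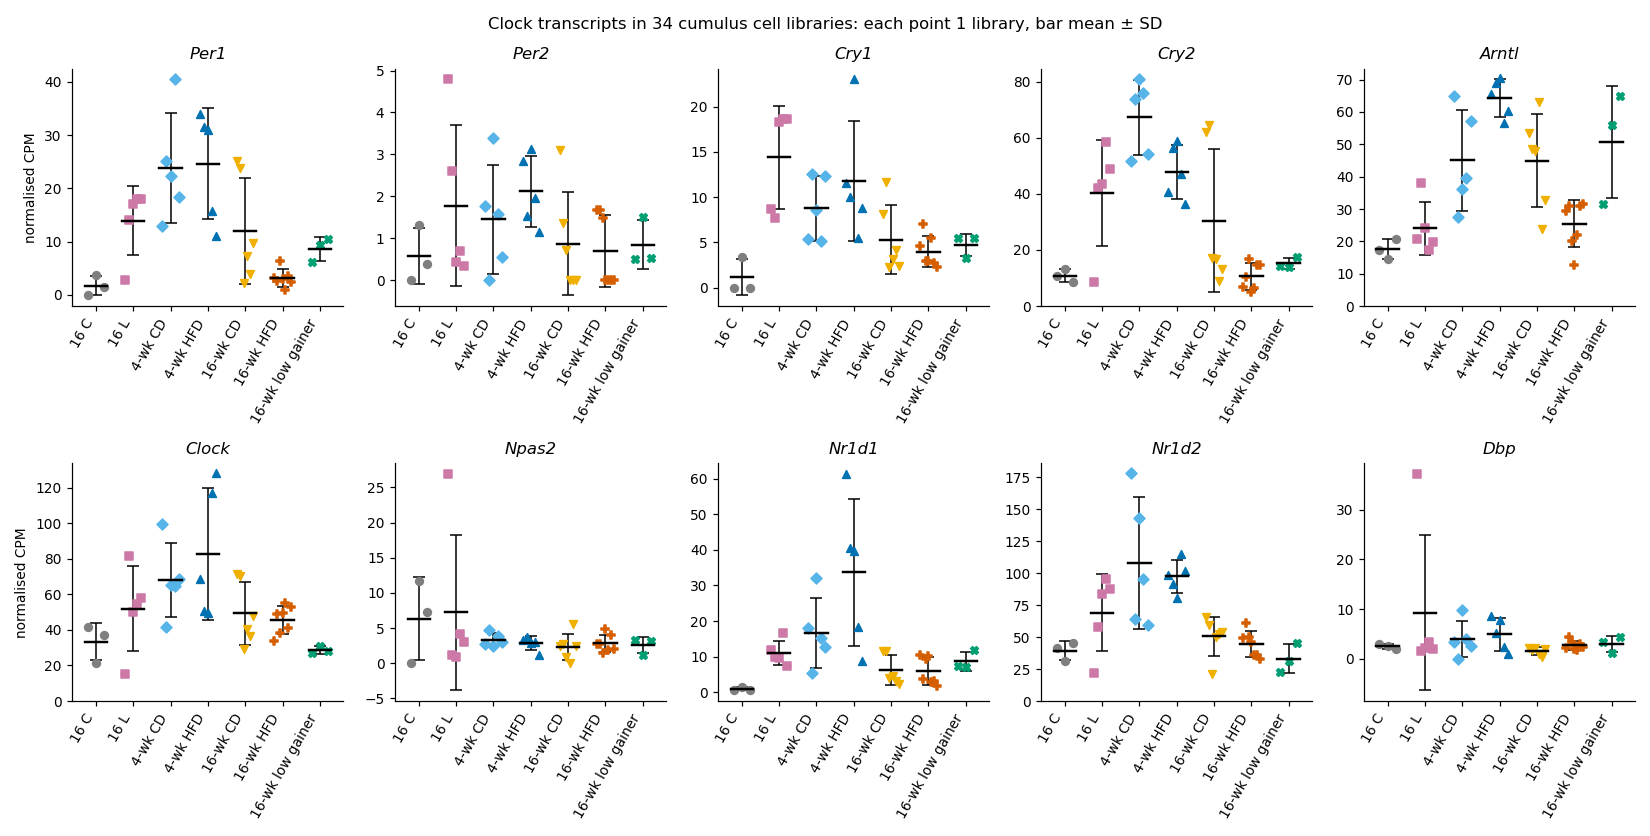
Normalised CPM (vertical axis) of the 10 clock transcripts in the 7 groups (horizontal axis), with 1 point per library and bars at the mean ± SD. Per1, Cry2 and Nr1d1 have their highest group means at 4 weeks of diet, 16-week CD splits into a high pair and 4 low libraries for Per1 and Cry2, and the single high points of Npas2 (26.9) and Dbp (37.1) in 16 L are replicate 18.

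Arntl and Clock, the positive arm, followed other orders. Arntl, which encodes BMAL1, had group means of 17.6 ± 3.15 in 16 C, 23.996 ± 8.15 in 16 L, 25.4 ± 7.28 in 16-week HFD, 44.9 ± 14.3 in 16-week CD, 45.1 ± 15.5 in 4-week CD, 50.8 ± 17.3 in the low weight gainers and 64.4 ± 5.91 in 4-week HFD (adjusted p = 3.14e-05). The means of 16 L and 16-week HFD lay within their spreads of each other, as did those of both CD groups and the low weight gainers. Clock, its partner, had its lowest mean in the low weight gainers at 28.7 ± 2.19 and its highest in 4-week HFD at 82.8 ± 37.2 (adjusted p = 0.00621). Nr1d2 ranged from 33.2 ± 11.3 in the low weight gainers to 107.8 ± 51.4 in 4-week CD (adjusted p = 0.000200), and Cry1, the other cryptochrome, from 1.15 ± 1.98 in 16 C to 14.4 ± 5.66 in 16 L (adjusted p = 0.00122). Npas2, a paralogue of Clock, had means of 2.33 to 7.22 (adjusted p = 0.171), and Per2 of 0.563 to 2.12 (adjusted p = 0.524).

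Levels of Per1 and Cry2 separated with the top-50 share of the libraries. With a threshold of 20%, chosen after the values were seen, 17 libraries lay under it and 17 above. Cry2 was between 36.5 and 80.9 normalised CPM in the 16 libraries under the threshold other than 16 L replicate 18 (8.73), and between 4.88 and 17.5 in all 17 above. Per1 was between 11.1 and 40.5 in those 16 libraries and between 0 and 10.4 in the 17 above, with 2.74 in 16 L replicate 18. The 2 sets of libraries thus did not overlap for 2 of the 10 members, where 8.79% of the 13236 genes that passed the filter did not overlap, and with RPM in place of normalised CPM the 2 sets were apart for 5 members (10.6% of genes). Nr1d1 overlapped, with 5.37 to 61.2 in the 16 libraries and 0.758 to 11.7 in the 17.

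**Figure D2:**
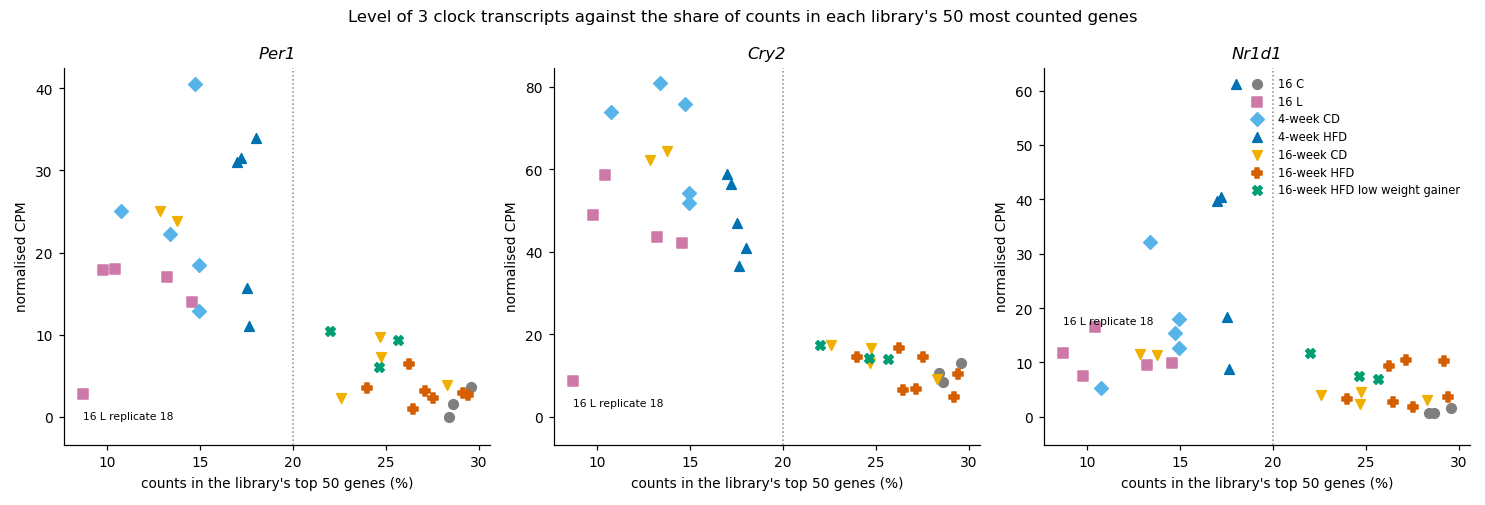
Normalised CPM (vertical axis) of Per1, Cry2 and Nr1d1 against the percentage of each library's counts in the common set of 50 genes (horizontal axis), 1 point per library, with the groups by colour and shape and a dotted line at 20%. The set is the same for every library, although the title and axis label name each library's own top genes. Apart from 16 L replicate 18, every library left of the line lies above every library right of it for Per1 and Cry2, and 16-week CD is the group with libraries on both sides.

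The same split ran through 16-week CD, whose 6 libraries share diet and duration. Per1 was 25.1 and 23.8 in replicates 1 and 2 and 9.75, 2.30, 7.24 and 3.87 in replicates 13, 5, 8 and 9. Cry2 was 62.1 and 64.5 in the first pair and 13.2, 17.3, 16.8 and 9.11 in the others. Nr1d1 was 11.5 and 11.4 against 2.44, 4.07, 4.53 and 3.04. For 7 members (Per1, Per2, Cry1, Cry2, Clock, Nr1d1 and Nr1d2) replicates 1 and 2 lay above the other 4, and none lay below; of all genes, 32.5% lay above and 56.2% lay on either side. The part of the top-50 share in the differences between groups was not tested, and for 16 C against 16 L and against 4-week CD, whose libraries all lay on opposite sides of the threshold, share and group cannot be told apart.

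In the leptin experiment, Nr1d1 was the member that passed the test between 16 L and 16 C, and it was higher in 16 L. Nr1d1 was 0.758, 1.54 and 0.772 normalised CPM in 16 C replicates 1, 2 and 3, and 11.8, 9.90, 9.60, 16.6 and 7.44 in 16 L replicates 18, 19, 20, 21 and 23. Every 16 L library exceeded every 16 C library, which held 16 Nr1d1 reads in all. The log2 fold change was 3.26 (SE 0.602, Benjamini-Hochberg adjusted p = 0.0198, edgeR), with 1 of 8 members tested called, where 8.56% of all genes were called.

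Cry1 had no read in 16 C replicates 1 and 3, whose depth allows up to 2.27 and 1.16 normalised CPM, and 3.44 in replicate 2. In 16 L it was 8.73, 7.70, 18.3, 18.6 and 18.6 for replicates 18, 19, 20, 21 and 23. The groups did not overlap for Cry1 and Nr1d1 (23.4% of all genes did not, and on RPM the count was 4 with 31.3% of all genes), but the fitted difference of Cry1 (log2 fold change 3.22, SE 1.02) had an adjusted p of 0.0732. Per1 and Cry2 did not pass the test either. Per1 was 0, 3.67 and 1.54 in 16 C and 2.74, 14.005, 17.02, 17.9 and 17.9 in 16 L. Cry2 was 10.6, 13.2 and 8.50 in 16 C and 8.73, 42.0, 43.7, 58.6 and 49.0 in 16 L. For both genes replicate 18 was the lowest 16 L library and lay within the range of 16 C, and the other 4 lay above it.

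Without 16 L replicate 18, 6 of 8 members were called, all higher in 16 L, namely Per1, Cry1, Cry2, Clock, Nr1d1 and Nr1d2, but 41.8% of all genes were then called. The log2 fold changes were 2.80 for Per1 (adjusted p = 0.00728), 3.11 for Cry1 (0.0211), 2.04 for Cry2 (0.000816), 0.81 for Clock (0.0482), 3.08 for Nr1d1 (0.00281) and 0.96 for Nr1d2 (0.0190), and Arntl stayed at 0.43 (0.332). The call of Nr1d1 was lost without 16 C replicate 1, 2 or 3 or 16 L replicate 20, 21 or 23, with a log2 fold change of 3.08 to 3.81 and an adjusted p of 0.0528 to 0.118 in these 6 fits, in 5 of which no member was called. Without 16 C replicate 2, Cry1 was called in its place. The median of all genes was 0.27 on the log2 scale with TMM and 1.08 with total counts alone, so a member's difference is read against that shift. Dbp and Per2 failed the filter on low counts. Dbp, a clock output, was 37.1 in 16 L replicate 18 and 1.601 to 3.45 in the other 4 libraries, against 1.93 to 3.03 in 16 C (exact permutation test on log2 values, two-sided p = 0.804, smallest possible 0.0179).

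Markers of other cells were high in some 16 L libraries. The oviduct list summed to 1427 RPM in 16 L replicate 20, 2215 in replicate 21 and 382 in replicate 23, against 19.6 to 68.8 RPM in 16 C. The leukocyte list (Ptprc, Lyz2, Csf1r, Adgre1 and Cd68, with 4 of 5 in the table) was at 65.8 to 430.8 RPM in 16 C. It reached 1136 RPM in 16 L replicate 20 and 1345 in replicate 23, while replicates 18, 19 and 21 lay within the 16 C range. The haemoglobin genes reached 2474 RPM in 16 L replicate 21 and 9654 in replicate 18, against 1.06 to 19.2 RPM in 16 C. The sum of the cumulus expansion markers was lower in every 16 L library (1.94 to 845.8 RPM) than in every 16 C library (882.5 to 1404 RPM). The single markers did not all follow. Has2 was highest of all 34 libraries in 16 L replicate 19 (18.6 RPM) and Ptx3 in 16 L replicate 23 (178 RPM). Tnfaip6 and Ptgs2 were highest in libraries of the 16-week diet groups. In 16 L replicate 19 the oviduct list was at 9.77 RPM, the leukocyte list at 74.1 RPM and the haemoglobin genes at 1.93 RPM. Its expansion markers summed to 513.9 RPM, below every 16 C library. In that 1 library Per1 (14.005), Cry1 (7.70), Cry2 (42.0) and Nr1d1 (9.90) lay above all 16 C libraries. The part of these lists in the clock differences was not tested.

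**Figure D3:**
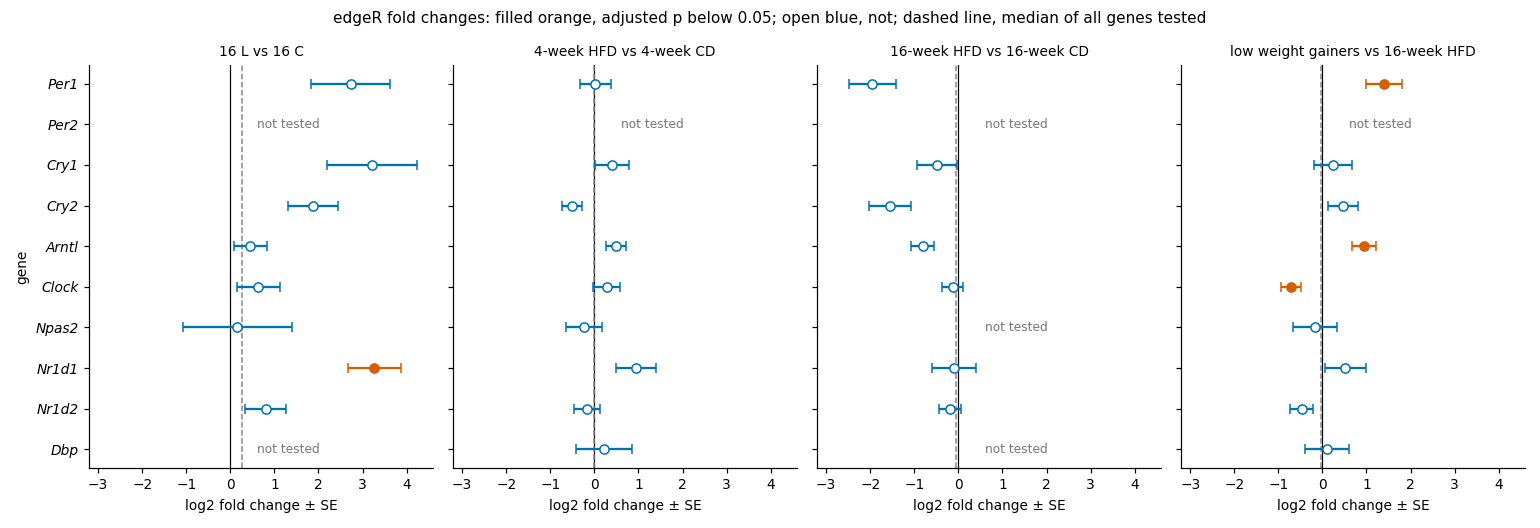
The log2 fold change ± SE (horizontal axis) of each clock gene (vertical axis) in 4 comparisons by edgeR's quasi-likelihood test, with filled points for adjusted p below 0.05 and a dashed line at the median of all genes tested. Nr1d1 is filled for leptin at 3.26, no point is filled for either diet comparison, and Per1, Arntl and Clock are filled for low weight gainers against 16-week HFD.

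After 4 weeks of diet, no clock gene differed between HFD and CD beyond the spread of replicates in the edgeR test. It called 0 of 9 members tested, where 4.26% of all genes were called. At an unadjusted p below 0.05 the number was 1 (Cry2, log2 fold change -0.51, SE 0.223, adjusted p = 0.171), DESeq2 called 0 and limma-voom with sample quality weights called 3 (Cry2, Arntl and Nr1d1). In 4-week CD Arntl was 65.0, 57.2, 27.4, 36.0 and 39.7, against 56.6, 60.3, 65.6, 69.1 and 70.5 in 4-week HFD. The HFD values sat at or above the upper end of the CD range, with overlap (log2 fold change 0.49, SE 0.234, adjusted p = 0.210).

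Nr1d1 split 4-week HFD into high and low libraries. It was 61.2, 40.5 and 39.8 in replicates 3, 4 and 5 and 18.3 and 8.74 in replicates 13 and 14. The split was set by these values, and the share of all genes that separate the same libraries was not computed. Dbp followed with 8.65, 5.25 and 7.74 against 2.32 and 1.00, and Per1 with 34.0, 31.5 and 31.0 against 15.7 and 11.1. Cry1 followed as well, at 11.6, 10.06 and 23.02 against 5.48 and 8.81. Arntl was also higher in replicates 3, 4 and 5, at 65.6, 69.1 and 70.5 against 56.6 and 60.3. Clock was the other way round, at 68.9, 50.5 and 49.8 in replicates 3, 4 and 5 and 116.8 and 128.1 in replicates 13 and 14. So was Nr1d2, the paralogue of Nr1d1, at 98.7, 91.4 and 80.2 against 114.6 and 101.999. Per2, Cry2 and Npas2 overlapped between these libraries. The top-50 share was alike in all 5 (16.97% to 18.01%), while the depth of replicates 13 and 14 (9255287 and 12641896 counts) exceeded that of the other 3 (3945350 to 7113599). Cell markers split the same way. In replicates 3, 4 and 5 the leukocyte list was at 226, 305 and 172 RPM, against 69.0 and 58.1. Granulosa markers (Foxl2, Inha, Fshr, Amh and Nr5a2) were at 669, 623 and 629 against 488 and 489. Cumulus expansion markers were lower, at 706, 708 and 828 against 969 and 1140. The other marker lists overlapped. The part of these lists in the split was not tested. Whether the libraries were collected at different hours or on different days is not given in the labels and was not tested. Between the diets Nr1d1 overlapped in part: replicates 3, 4 and 5 lay above all 4-week CD libraries (5.37 to 32.1), and replicates 13 and 14 lay within their range (log2 fold change 0.95, SE 0.460, adjusted p = 0.217).

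After 16 weeks of diet, Per1, Cry2 and Arntl had the lowest fold changes, and none passed the test. In 16-week HFD Per1 ran from 0.919 to 6.39 with a median of 2.93 (n = 7), and in 16-week CD from 2.30 to 25.1 with a median of 8.50 (n = 6). Cry2 ran from 4.88 to 16.7 with a median of 10.3 in HFD and from 9.11 to 64.5 with a median of 17.04 in CD. Arntl ran from 12.7 to 31.6 with a median of 29.5 in HFD and from 23.7 to 62.9 with a median of 48.4 in CD. For each gene the groups overlapped, and for Per1 and Cry2 the upper end of the CD range was replicates 1 and 2.

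The edgeR test called 0 of 7 members tested, with 0.0276% of all genes called. Per1 (log2 fold change -1.95, SE 0.536, adjusted p = 0.0662), Cry2 (-1.55, SE 0.470, adjusted p = 0.0737) and Arntl (-0.81, SE 0.260, adjusted p = 0.0826) were the 3 with an unadjusted p below 0.05. The same 3 were called by DESeq2, by edgeR with total counts, by edgeR in a fit of all 34 libraries and without 16-week CD replicate 9, and limma-voom called 0. Among libraries above the 20% share, that is, without 16-week CD replicates 1 and 2, the log2 fold changes were -0.75 for Per1 (adjusted p = 0.620), -0.33 for Cry2 (0.749) and -0.63 for Arntl (0.495), with 0.00909% of all genes called. Dbp, Npas2 and Per2 failed the filter at 16 weeks. Dbp was 1.84 to 4.34 in HFD and 0.276 to 2.15 in CD, a difference in mean log2 (CPM + 1) of 0.59 (exact permutation test, two-sided p = 0.0245, adjusted p = 0.196 over the 8 tests of this kind).

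Low weight gainers differed from 16-week HFD in 3 clock genes. Arntl was 31.5, 55.99 and 64.9 in low weight gainer replicates 21, 22 and 23. In 16-week HFD its highest value was 31.6, so replicate 21 lay just inside that range and the other 2 above it. Clock was 26.9, 31.2 and 28.2 in the low weight gainers and 33.9 to 55.1, with a median of 48.7, in 16-week HFD. For Clock the groups did not overlap, as was the case for 20.4% of all genes, and on RPM Arntl was another such member (18.5% of all genes). Per1 was 6.11, 9.38 and 10.4 against 0.919 to 6.39, where 1 HFD library (replicate 11) reached into the low weight gainer range.

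By edgeR's quasi-likelihood test, 3 of 9 members tested were called, and 20.7% of all genes were. Per1 rose (log2 fold change 1.39, SE 0.404, adjusted p = 0.0230), as did Arntl (0.94, SE 0.274, adjusted p = 0.0238), while Clock fell (-0.70, SE 0.224, adjusted p = 0.0343). The positive arm therefore moved in opposite directions, with Arntl higher and its partner Clock lower in the same 3 libraries. No member was called without low weight gainer replicate 22 or replicate 23, nor when all 34 libraries were fitted together. The call of Clock was also lost without low weight gainer replicate 21 or 16-week HFD replicate 14 or 16, and with total counts or no filter, with an adjusted p of 0.0555 to 0.321 over these and the fits above and Clock lower in all of them. Against 16-week CD, the edgeR test called 0 of 9 members (0.00861% of all genes), 1 member (Clock, log2 fold change -0.80, SE 0.334, adjusted p = 0.413) had an unadjusted p below 0.05, and DESeq2 and limma-voom each called 0. Without 16-week CD replicates 1 and 2, 0 members were called (0.0271% of all genes), and the log2 fold change of Clock was -0.41 (adjusted p = 0.446). On RPM, Clock did not overlap between these groups either, as 6.93% of all genes. The comparisons of the low weight gainers share their 3 libraries, and that with 16-week HFD shares its 7 HFD libraries with the diet comparison.

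The diet difference at 16 weeks was set against that at 4 weeks in one model of the 4 diet groups. In the separate fits of each duration, the diet difference was 0.49 on the log2 scale at 4 weeks and -0.81 at 16 weeks for Arntl, and 0.02 and -1.95 for Per1. In the joint model the interaction was -1.22 for Arntl (SE 0.366, adjusted p = 0.0529) and -1.87 for Per1 (SE 0.652, adjusted p = 0.0838). edgeR's quasi-likelihood test thus called 0 of 9 members, with 3.66% of all genes called, and these 2 were the members with an unadjusted p below 0.05. DESeq2 called 1 (Arntl) and limma-voom called both. With edgeR, Arntl was called without 4-week CD replicate 11 or 16-week CD replicate 5, 9 or 13, and Per1 with it when replicate 5 or 9 was left out. The interaction without 16-week CD replicates 1 and 2 was -1.16 for Arntl (adjusted p = 0.113) and -0.80 for Per1 (adjusted p = 0.473), with 0 members and 0.725% of all genes called.

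Mice of the 3 control groups, which differed in age and in injections, were compared because clock genes may mark unequal collection times. The labels name no cohort or batch. Between 16-week CD and 4-week CD, 2 of 9 members were called by edgeR's quasi-likelihood test (20.1% of all genes). These were Nr1d1 (log2 fold change -1.36, SE 0.453, adjusted p = 0.0416) and Nr1d2 (-1.01, SE 0.316, adjusted p = 0.0320), both lower at 16 weeks, as were 7.57% of all genes. Nr1d1 was 18.1, 12.7, 5.37, 32.1 and 15.3 in 4-week CD replicates 1, 11, 2, 7 and 8, and the 16-week CD pair at 11.5 and 11.4 lay inside that range while the other 4 libraries, at 2.44 to 4.53, lay below it. Nr1d2 was 177.9, 59.5, 63.8, 142.8 and 95.1 in 4-week CD and 21.4 to 66.0 in 16-week CD, with overlap. Both calls were lost without 16-week CD replicate 5, 8 or 13 or 4-week CD replicate 1, 7 or 8, and that of Nr1d1 also without 16-week CD replicate 9. Without 16-week CD replicates 1 and 2 together, 5 members were called, all lower (Per1, Cry2, Clock, Nr1d1 and Nr1d2), where 44.9% of all genes were called, among them Cry2 at -2.21 on the log2 scale (adjusted p = 1.25e-05).

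Of the clock transcripts, 6 were lower in saline-injected 16 C than in 4-week CD. The edgeR test called 6 of 9 members lower, where 37.5% of all genes were called and 16.6% were called lower. The log2 fold changes were -3.64 for Nr1d1 (SE 0.704, adjusted p = 0.00151), -3.22 for Per1 (SE 0.791, adjusted p = 0.00545), -2.43 for Cry2 (SE 0.565, adjusted p = 0.00410), -2.25 for Cry1 (SE 0.822, adjusted p = 0.0392), -1.27 for Nr1d2 (SE 0.403, adjusted p = 0.0213) and -1.18 for Arntl (SE 0.358, adjusted p = 0.0170). On normalised CPM, 7 members (these 6 and Clock) did not overlap between the groups, where 45.4% of genes did not. Cry2, for example, was 51.8 to 80.9 in 4-week CD against 8.50 to 13.2 in 16 C. Without 16 C replicate 1, the calls fell to 3 (Per1, Cry2 and Nr1d1), which were called in each of the 8 fits that left out 1 library. Arntl lost its call without 16 C replicate 1 or 2, Nr1d2 without any 1 of the 3 16 C libraries or 4-week CD replicate 1, and Cry1 without 16 C replicate 1 or 3 or 4-week CD replicate 2, 7 or 11. Without 16-week CD replicates 1 and 2, which share the fit, 7 were called lower (these 6 and Clock), where 47.5% of all genes were called. The 4-week CD libraries are the shared reference of both comparisons of control groups.

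Ratios within a library do not depend on how that library is scaled. The log2 ratio of Arntl to Nr1d1 reads was 3.19 to 4.45 in 16 C and 0.06 to 1.93 in 16 L, without overlap. In 16 C replicates 1, 2 and 3 it rested on 1, 13 and 2 Nr1d1 reads, and in replicates 1 and 3 it leaned on the 0.5 added to each count. It was 0.17 to 2.29 in 4-week CD, 0.10 to 2.78 in 4-week HFD, 2.08 to 3.73 in 16-week CD, 0.30 to 4.03 in 16-week HFD and 2.07 to 2.98 in the low weight gainers. In the diet groups the ratio overlapped between CD and HFD at both times. The log2 ratio of Arntl to Dbp was 3.91 to 5.85 in 16-week CD and 2.47 to 3.75 in 16-week HFD, so that all 7 HFD libraries lay below all 6 CD libraries, with 41 Dbp reads behind the CD values and 56 behind those of HFD. It spanned 1.87 to 6.54 in 4-week CD, 2.91 to 5.86 in 4-week HFD, 3.22 to 5.37 in the low weight gainers and 2.38 to 3.31 in 16 C. In 16 L it spanned -0.83 in replicate 18 to 4.52. These ratios are descriptions and were not tested, and the share of other gene pairs whose ratios do not overlap was not computed.

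Variation between replicates differed across the members. The biological coefficient of variation in the fit of all libraries lay above that of 93.6% of genes for Per2, 88.7% for Dbp and 87.3% for Npas2, which are also the 3 lowest members per length. It was above 73.5% of genes for Per1, 70.6% for Nr1d1, 67.7% for Cry1 and 59.2% for Cry2, and above 31.3% for Clock, 30.0% for Nr1d2 and 14.04% for Arntl. Of the 10 members, Arntl varied least between replicates.

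In all, 8 pairs of members, chosen by role, were then followed across the 34 libraries after group means had been removed. Nr1d1 and Dbp, which share activation through CLOCK and BMAL1, varied together (Pearson r = 0.524, permutation p = 0.00127, adjusted p = 0.00508 over 8 pairs, Spearman rho = 0.514, permutation p = 0.00444, adjusted p = 0.0178). Leaving out 4-week HFD replicates 14 and 3, which lay farthest from the Nr1d1 median, gave r = 0.438. By experiment it was 0.958 at 4 weeks of diet (n = 10), 0.227 at 16 weeks (n = 16) and 0.288 in the leptin experiment (n = 8), so the relation lay mainly in the 4-week libraries. Without the 3 libraries that stood apart, r was 0.675 (permutation p adjusted to 0.00648), while rho was 0.522 (adjusted to 0.0874).

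**Figure D4:**
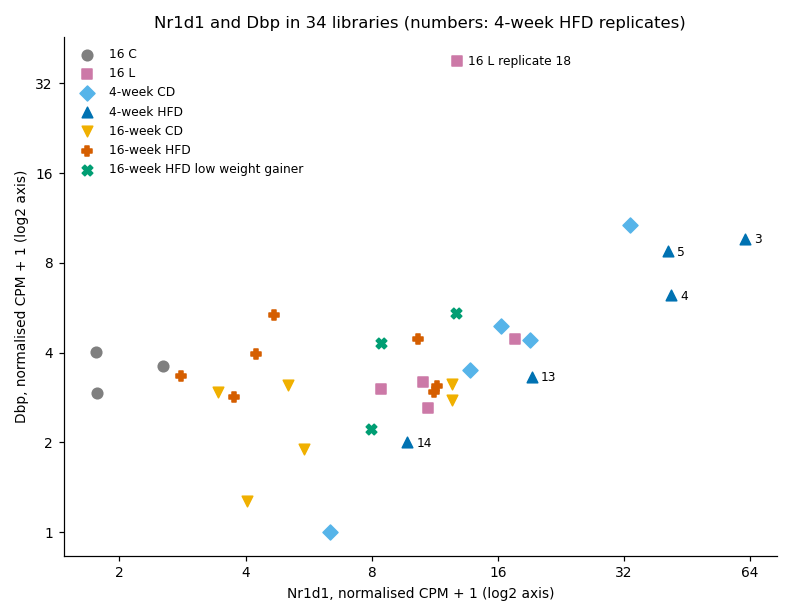
Dbp against Nr1d1 in normalised CPM + 1 on log2 axes, 1 point per library, with groups by colour and shape and the replicate number printed for 4-week HFD. The 4-week HFD libraries 3, 4 and 5 lie at the upper right and 13 and 14 at lower levels of both genes, and 16 L replicate 18 stands alone in Dbp at 37.1 normalised CPM.

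Per2 and Dbp gave r = 0.599 (permutation p = 0.000420, adjusted p = 0.00336) and rho = 0.566 (permutation p = 0.000540, adjusted p = 0.00432), although Per2 had 0 to 28 reads in a library. It was 0.517 without 16-week CD replicate 1 and 16 L replicate 18, and 0.901, 0.354 and 0.648 in the 4-week, 16-week and leptin experiments. Without all 3 libraries that stood apart, r was 0.498 (permutation p adjusted to 0.0365) and rho 0.382 (adjusted to 0.104). For Arntl, no inverse relation was detected with Nr1d1 (r = 0.0814, permutation p adjusted to 0.668; rho = 0.0561, adjusted to 0.767) or with Dbp (r = 0.120, adjusted to 0.616; rho = 0.103, adjusted to 0.668). Arntl and Npas2 gave r = -0.361 (permutation p = 0.0363, adjusted p = 0.0969) and rho = -0.334 (adjusted p = 0.1504), which missed the threshold. The other 3 pairs did so as well, with r of 0.249 for Arntl and Clock, 0.283 for Nr1d1 and Nr1d2 and 0.201 for Per1 and Per2 (permutation p adjusted to 0.259, 0.185 and 0.454).

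The genes most like each of 3 members were found among 13235 others by the same r over 34 libraries, as a description. For Arntl they were Nr2c1 (0.803), Zfp27 (0.780) and Hiat1 (0.779), with r of 0.800, 0.779 and 0.797 without the 3 libraries that stood apart. For Nr1d1 they were Fpgs (0.773), Hdgfrp2 (0.757) and Tsc22d4 (0.740), and without those libraries r was 0.728, 0.702 and 0.668. For Dbp they were Gm20458 (0.814), Gm20441 (0.799) and Tmem176b (0.776), falling to 0.663, 0.603 and 0.585 without them.

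Of 24 further genes of the clock pathway, 22 were in the table. After 4 weeks of HFD, 1 of 20 tested was called by edgeR's quasi-likelihood test, near the share of all genes (4.26%). It was Wee1, a kinase of cell cycle entry (log2 fold change 1.62, SE 0.408, adjusted p = 0.0391). Wee1 was 12.0 to 27.9 normalised CPM in 4-week HFD and 1.19 to 9.16 in 4-week CD. In low weight gainers against 16-week HFD, 4 of 19 were called, near the share of all genes (20.7%). The receptors Rora (-0.89, SE 0.205, adjusted p = 0.00728) and Rorb (-1.87, SE 0.583, adjusted p = 0.0320) fell. The repressor Bhlhe40 (0.93, SE 0.258, adjusted p = 0.0186) and the kinase Csnk1d, which phosphorylates PER proteins (1.22, SE 0.198, adjusted p = 0.00120), rose. ROR receptors activate Arntl through ROR elements, and whether they act at the element printed above was not tested. The diet by time interaction was called for 1 of 20, near the share of all genes (3.66%), namely Csnk1d (-1.32, SE 0.369, adjusted p = 0.0446). Its mean was 112.3 ± 25.96 normalised CPM in 4-week CD (n = 5), 144.9 ± 33.1 in 4-week HFD (n = 5), 86.9 ± 46.0 in 16-week CD (n = 6), 41.7 ± 3.78 in 16-week HFD (n = 7) and 99.9 ± 33.2 in the low weight gainers (n = 3). The interaction of Csnk1d without 16-week CD replicates 1 and 2 was -0.81 (SE 0.308, adjusted p = 0.155), and 0 of 20 were called.

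In the comparisons of controls, pathway genes moved both ways. Between 16 C and 4-week CD, 8 of 21 were called (37.5% of all genes), with Per3 (log2 fold change 3.49, SE 0.733, adjusted p = 0.00228), Bhlhe41 (3.13), Csnk2a1 (3.20) and Gsk3b (4.09) higher and Tef (-1.65), Csnk1d (-1.53), Fbxl21 (-3.41) and Fbxw11 (-1.73) lower in 16 C. Fbxl21 was near the floor, with 2 reads in 1 library of 16 C and 50 reads in 4-week CD. Pathway calls between control groups were not followed through the fits that left out 1 library. Per3, a paralogue of Per1, was 94.6 to 201.9 normalised CPM in 16 C against 6.12 to 25.3 in 4-week CD, the opposite direction to Per1. Between 16-week CD and 4-week CD, 5 of 21 were called (20.1% of all genes), with Csnk2a1 (2.21) and Gsk3b (2.30), both kinases that act on clock proteins, higher and Tef (-0.98), Fbxw11 (-0.85) and Ccrn4l (-1.03) lower. Without 16-week CD replicates 1 and 2, 7 of 21 were called (44.9% of all genes), the same 5 with Per3 (1.98) higher and Csnk1d (-0.92) lower. Tef encodes a transcription factor of the same family as Dbp, and Fbxw11 a ubiquitin ligase subunit that targets PER proteins.

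For leptin, 0 of 19 pathway genes were called by edgeR, 6 had an unadjusted p below 0.05 and DESeq2 called 5. The smallest p was that of Csnk1d (adjusted p = 0.0561). Without 16 L replicate 18, 8 of 18 were called (41.8% of all genes), of which Tef, Csnk1d and Fbxw11 were higher and Per3 (-4.45, adjusted p = 0.000118), Rora, Bhlhe41, Csnk2a1 and Gsk3b were lower in 16 L. Neither 16-week CD comparison that follows gave a pathway call without 16-week CD replicates 1 and 2. For 16-week HFD against 16-week CD, 0 of 19 were called, 7 had an unadjusted p below 0.05 and DESeq2 called 3, with the smallest p for Csnk1d (adjusted p = 0.0654). For low weight gainers against 16-week CD, 0 of 19 were called, 5 had an unadjusted p below 0.05 and DESeq2 called 1, with the smallest p for Csnk2a1 (adjusted p = 0.275). Across all 7 groups 12 of 21 were called, a lower share than the 67.8% of all genes, namely Per3, Rora, Tef, Bhlhe40, Bhlhe41, Csnk1d, Csnk2a1, Gsk3b, Btrc, Fbxw11, Usp2 and Ccrn4l. With the 3 libraries that stood apart left out, 12 were called again (74.3% of all genes), with Wee1 in place of Usp2.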

How the data were processed

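The authors deposited one table of raw read counts per gene, not normalised, for 34 libraries. Per the labels and the study's methods, RNA of about 50 CCs was reverse transcribed from oligo-dT primers and amplified without molecular identifiers. Limits given for libraries with no read therefore cover counting error only, while SDs and SEs include the spread between libraries. The submitters' processing notes name Trim Galore 0.4.2, HISAT2 2.0.5 and build GRCm38, and the counting program is not given in the sources used here. Depth was 1104611 to 13207018 counts. Where a library had no read of a gene, the level that 3 counts would give was taken as its limit. No pair of libraries of a group was identical (72 pairs).

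Members and gene lists were chosen with earlier results of these data known. From the counts, genes were filtered by filterByExpr, scaled by TMM and tested with robust quasi-likelihood F-tests in edgeR 4.0.16 (R 4.3.3), two-sided, with Benjamini-Hochberg adjustment over all genes tested and a threshold of 0.05. Each fit held only the groups compared, the 3 control groups shared 1 fit, and the interaction used the 4 diet groups. Standard errors were the fold change divided by the square root of F. Exon lengths and overlaps came from GENCODE M21. Ratios used counts plus 0.5. Correlations used log2 (normalised CPM + 1), group means removed, with 100000 permutations within groups, two-sided. Named genes were the 10 members, pathway genes past the threshold (otherwise the one with the smallest p), the defining cell markers and the 3 genes most like Arntl, Nr1d1 and Dbp.

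Alternatives were DESeq2 1.42.0, limma-voom (limma 3.58.1), RLE factors, total counts, other filters (none, or a minimum of 10 counts per library), a fit of all libraries, a replicate block, each library left out in turn and, added after the data were seen, leaving out the libraries that stood apart. A change of sign was counted as such where either value was called or both exceeded their SE. Fits and permutations were tested on simulated data. The labels describe about 50 cells of 1 cumulus-oocyte complex per library and nothing else about replicates, so p-values measure the spread between these libraries.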

Additional observations from a re-analysis of the deposited data

Results flagged for a closer look

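In 50 sets of a member and a group of 4 to 10 libraries, the gap between an extreme library and its nearest neighbour, as a share of the range, exceeded Dixon's 95% critical value in 4, and chance alone gives about 1 in 20. In 3 of the 4 the library was 16 L replicate 18. Its Dbp level of 37.1 normalised CPM lay far above the next library at 3.45. Its Npas2 level of 26.9 lay above the next at 4.14. Its Per1 level of 2.74 lay below the next at 14.005. This library held 1.94 RPM of cumulus expansion markers, 29690 RPM of oviduct markers and 9654 RPM of the haemoglobin genes in the table, and the part of these in its clock levels was not tested. The other was Nr1d2 in 16-week CD replicate 5, at 21.4 normalised CPM against 49.8 in the next lowest library and 66.0 in the highest.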

How the results depend on the processing

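Of 623 refitted fold changes of members, none changed sign beyond its error, 524 kept their side of the threshold, 50 gained a call and 49 lost it. Fits that left out 1 library in turn entered this tally only for members called in the main fit. Calls gained and signs changed by other members in those fits are not in it. For leptin, where 1 member was called, total counts gave 6, DESeq2 4, limma-voom 6, a fit of all 34 libraries 4, an unadjusted p 4, and leaving out 1 library 0 to 6. At 4 weeks (0), limma-voom gave 3 and an unadjusted p 1. At 16 weeks (0), total counts, DESeq2, one fit of all libraries and an unadjusted p each gave 3, and leaving out 1 library 0 to 3. Low weight gainers against 16-week HFD (3) gave 0 in one fit of all libraries and 0 to 3 without 1 library, and against 16-week CD (0) an unadjusted p gave 1. The interaction (0) gave 1 with RLE, total counts, at least 10 counts or DESeq2, 2 with limma-voom or an unadjusted p, and 0 to 2 without 1 library. The 16-week against 4-week CD comparison (2) gave 1 with total counts or at least 10 counts, 4 with limma-voom, 5 without 16-week CD replicates 1 and 2, and 0 to 3 without 1 library. For 16 C against 4-week CD (6), leaving out 1 library gave 3 to 6. Across the 7 groups (8), 3 passed with at least 10 counts in every library, since that filter removed low members. By DESeq2, pathway calls were 5 for leptin, 3 at 16 weeks and 1 for low weight gainers against 16-week CD, against 0 in edgeR. Without 16-week CD replicates 1 and 2, the 1 pathway call of the interaction fell to 0. Members without overlap on RPM were 4 for leptin, 2 for low weight gainers against 16-week HFD and 1 against 16-week CD. The Arntl and Nr1d1 correlation was 0.530 with group means kept, that of Arntl and Clock 0.408 with means kept and 0.485 on RPM, that of Nr1d1 and Nr1d2 0.6002 and 0.443, that of Per1 and Per2 0.433 with means kept, and that of Arntl and Npas2 -0.430 without the 3 libraries that stood apart. These 7 then passed the threshold. Unless stated, the cause of a change was not tested.

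Replicate numbers shared by control groups did not pair the libraries, as deviations of same-numbered libraries correlated at -0.227 to 0.083. With a replicate block, 0 members were called for 16-week against 4-week CD (400 genes in all against 2477), 4 for 16 C against 4-week CD and 0 for the interaction. Depth limited Per2, with 0 to 28 reads in a library, and Dbp and Npas2 at 16 weeks of diet.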
